A study of Homo sapiens with 4 samples.

Results

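The aryl hydrocarbon receptor and its best known partners and targets were examined as 7 genes. They were chosen by name, and all 7 were found among the 33538 genes of the deposited table, each once: AHR (ENSG00000106546), ARNT (ENSG00000143437), AHRR (ENSG00000063438), TIPARP (ENSG00000163659), CYP1A1 (ENSG00000140465), CYP1B1 (ENSG00000138061) and NQO1 (ENSG00000181019). The cells were BT474, an established human line of breast carcinoma with estrogen receptor and HER2 amplification. Cultures received the vehicle DMSO, 100 nM fulvestrant (an estrogen receptor antagonist and degrader), 200 nM neratinib (an irreversible inhibitor of the HER2 family kinases) or both drugs at those doses, for 4 h in every group. Each of the 4 groups was 1 single-cell RNA library, so no difference has a replicate check and nothing was tested between groups.

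The receptor encoded by AHR waits in the cytoplasm in a chaperone complex, enters the nucleus when it binds a ligand such as dioxin or a tryptophan metabolite, and pairs there with ARNT on short DNA elements. The pair switches on genes of drug metabolism, of which CYP1A1 and CYP1B1 are the classical readouts, and also the receptor's own brakes, AHRR and TIPARP. In breast cells the pathway is known for its cross-talk with the estrogen receptor and for the oxidation of estradiol by CYP1A1 and CYP1B1.

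The core that the AHR and ARNT pair binds was looked for, as GCGTG on the gene's strand or CACGC for the other strand, in the 250 bases before each RefSeq start site (build GRCh38.p14). RefSeq promoter windows were at hand for 6 of the 7 genes, 9 windows in all; CYP1B1 had none in the table. The core lay in 4 windows of 3 genes, namely CYP1A1, AHRR and TIPARP. Of all 35116 windows of the same length, 32.2% held the core and 10.2% held it at least 2 times, so its presence is common. The windows below are shown because these 3 genes held a core. For AHRR and TIPARP the window with 2 cores is given. Capitals mark the core, and the last base printed is the base before the start site.
CYP1A1 upstream window, chr15:74725529-74725778 (- strand): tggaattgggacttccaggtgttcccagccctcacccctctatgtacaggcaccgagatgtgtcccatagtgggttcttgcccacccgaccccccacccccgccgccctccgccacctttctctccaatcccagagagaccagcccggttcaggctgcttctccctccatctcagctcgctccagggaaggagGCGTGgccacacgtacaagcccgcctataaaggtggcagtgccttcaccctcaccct
AHRR upstream window, chr5:322360-322609 (+ strand): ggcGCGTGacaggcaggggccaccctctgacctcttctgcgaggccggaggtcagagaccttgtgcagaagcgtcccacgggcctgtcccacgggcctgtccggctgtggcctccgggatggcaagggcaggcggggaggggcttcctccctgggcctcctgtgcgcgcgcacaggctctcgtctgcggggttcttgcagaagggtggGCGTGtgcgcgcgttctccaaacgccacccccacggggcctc
TIPARP upstream window, chr3:156674340-156674589 (+ strand): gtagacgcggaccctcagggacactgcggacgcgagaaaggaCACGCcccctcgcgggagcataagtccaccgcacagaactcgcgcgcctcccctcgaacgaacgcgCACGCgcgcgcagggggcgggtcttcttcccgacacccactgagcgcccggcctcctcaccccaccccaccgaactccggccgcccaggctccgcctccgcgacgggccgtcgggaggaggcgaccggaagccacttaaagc
The core of CYP1A1 began 57 bases before the start site. Those of AHRR began 247 and 42 bases before it, and the other AHRR window had a core 30 bases before its start. The TIPARP cores, on the other strand, began 208 and 142 bases before the start. No core was found in these windows of AHR, ARNT and NQO1 or in the other TIPARP windows, which says only that these letters are not there.

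A barcode counted as a cell with at least 5000 UMIs (unique molecular identifiers, 1 per captured RNA molecule) and at least 500 genes, which kept 15169 cells, from 3485 to 4301 per library, with 82967775 to 102504452 UMIs per library and median depths of 22007 to 23010 UMIs per cell. The median share of mitochondrial UMIs was 16.2% in DMSO and 16.7% with fulvestrant, but 21.1% with neratinib and 21.1% with both drugs. A ceiling of 20% on that share, used below as an alternative, kept 85.4%, 82.5%, 37.6% and 37.7% of cells in the same order. Values under it therefore rest on unequal parts of the libraries. From 10 to 15 cell barcodes per library also occurred as cells of another library. All 7 luminal epithelial markers were detected in every library, with a summed level of 7730, 7410, 5080 and 4440 CPM (UMIs scaled to library size) in DMSO, fulvestrant, neratinib and both drugs. Markers of other cell types were near 0: 1.78 to 2.49 for endothelium, 0.956 to 1.15 for immune cells, and 10.2 to 12.4 for fibroblasts, where the collagen gene COL1A1 made up nearly all of the sum and COL1A2 and PDGFRB were at 0 in every library. Known drug readouts were MYC, at 75.8 in DMSO and 15.6 with fulvestrant, and the ERK output gene DUSP6, at 13.0 in DMSO and 1.54 with neratinib.

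Levels are given as CPM, the UMIs of a gene summed over the cells of a library and divided by the library's UMIs, on a scale that sums alike in all libraries, with 95% intervals in square brackets that cover counting error only. Differences are log2 ratios of CPM, and a gene is called higher or lower where the log2 ratio is at least 0.32 in size with its interval off 0. Each drug was read in 2 pairs of libraries that share none: alone against DMSO, and both drugs against the other drug alone. Among the 12136 genes with a mean of at least 1 CPM, 3.03% were called in the fulvestrant pair with DMSO (1.23% higher, 1.80% lower) and 3.58% where both drugs are set against neratinib (1.57% higher, 2.00% lower). Far more were called in the other pairs: 46.9% with neratinib alone over DMSO (13.6% higher, 33.3% lower), 46.2% with both drugs over fulvestrant (13.8% higher, 32.4% lower) and 48.2% with both drugs over DMSO (14.9% higher, 33.3% lower). Of the 7 genes, 1 was called for fulvestrant against DMSO (CYP1A1, higher), 1 for both drugs against neratinib (TIPARP, lower), 2 for neratinib against DMSO and 2 for both drugs against fulvestrant (AHR and AHRR, lower), and 3 for both drugs against DMSO (AHR, AHRR and TIPARP, lower). The 2 of 7 and 3 of 7 in the pairs that differ in neratinib are near the background there. The median gene was at -0.16 for neratinib against DMSO and at -0.15 in the other pairs that differ in neratinib, so small differences in those pairs are to be read against that shift.

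**Figure D1:**
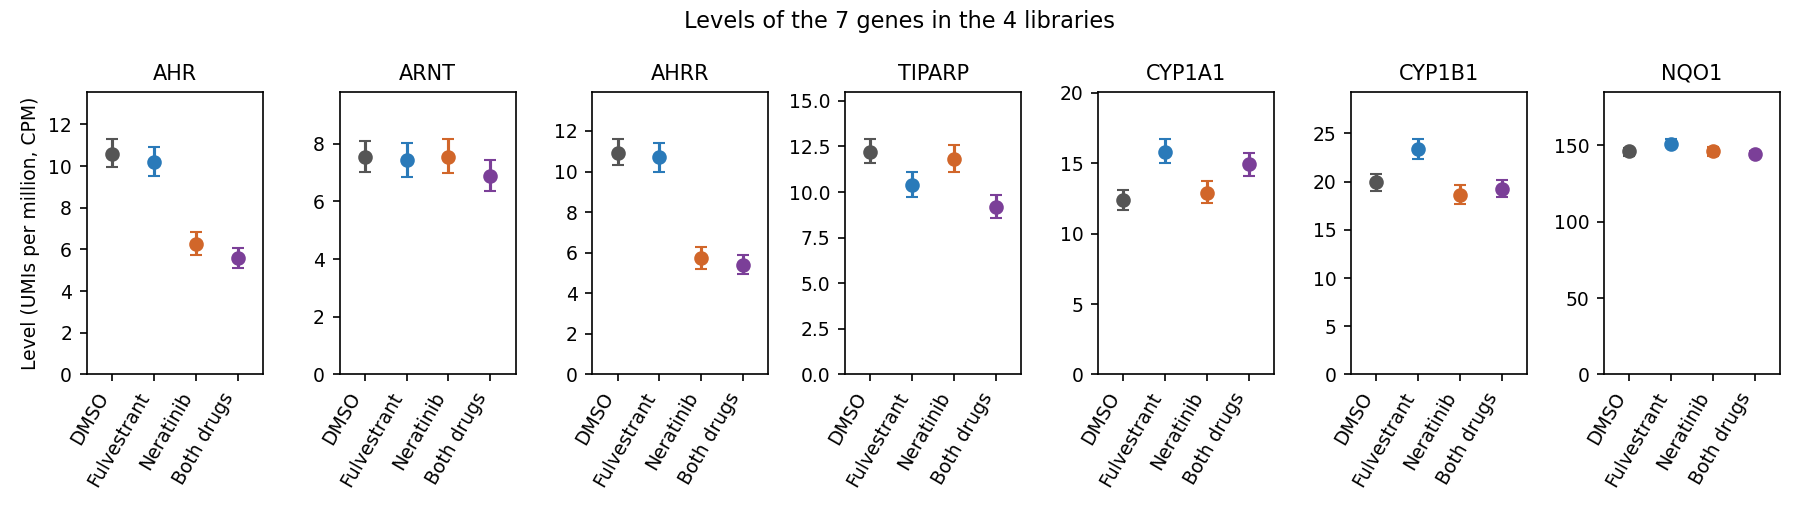
Level of each of the 7 genes in the 4 libraries, in CPM on a linear axis from 0, 1 point per library, with bars for the 95% counting interval. AHR and AHRR lie lower in the 2 libraries with neratinib, CYP1A1 lies higher in the 2 with fulvestrant, and TIPARP lies lower in the 2 with fulvestrant.

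The receptor itself was lower wherever neratinib was present. AHR stood at 10.6 CPM [9.98, 11.3] in DMSO and 10.2 [9.53, 10.9] with fulvestrant, against 6.28 [5.75, 6.84] with neratinib and 5.57 [5.09, 6.07] with both drugs. The intervals of the 2 libraries with neratinib lay below those of the 2 without it. Of all genes, 33.3% were called lower for neratinib against DMSO and 32.4% for both drugs against fulvestrant. How many of all genes separate this way was not counted. The log2 ratio was -0.76 [-0.91, -0.60] for neratinib against DMSO and -0.87 [-1.04, -0.71] for both drugs against fulvestrant. Fulvestrant left AHR close to its partner library in both of its pairs, at -0.06 [-0.19, 0.07] and -0.17 [-0.35, 0.01].

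The neratinib difference in AHR was seen in every quartile of cells examined. Cells of each library were split into quartiles by the share of UMIs from a list of 14 genes of the G2 and M phases of the cell cycle (the G2M list) and, separately, by mitochondrial share. For neratinib against DMSO the AHR ratio was -0.61 or lower in every G2M quartile and ran from -0.91 to -0.63 over the mitochondrial quartiles. With both drugs set against fulvestrant the ranges were -1.03 to -0.80 and -0.99 to -0.77. All of these intervals lay below 0. The share of cells with an AHR UMI moved in the same direction, 20.9% and 20.5% without neratinib against 13.1% and 11.5% with it. After every cell was thinned at random to 5000 UMIs these shares were 5.49%, 5.28%, 3.25% and 2.86% in the order DMSO, fulvestrant, neratinib and both drugs.

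ARNT, the nuclear partner of AHR, differed in none of the 5 pairs beyond counting error. Its levels were 7.54, 7.42, 7.55 and 6.88 CPM in DMSO, fulvestrant, neratinib and both drugs, and its intervals overlap in all 4 libraries. The greatest of its 5 ratios in size was -0.13 [-0.29, 0.03], for both drugs against neratinib.

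AHRR, the repressor that competes with AHR for ARNT, followed the same arrangement as AHR over the libraries. It was at 10.9 CPM [10.3, 11.6] in DMSO and 10.7 [9.96, 11.4] with fulvestrant, and at 5.73 [5.22, 6.26] with neratinib and 5.40 [4.93, 5.90] with both drugs. The ratios were -0.93 [-1.09, -0.78] for neratinib against DMSO and -0.98 [-1.14, -0.82] for both drugs against fulvestrant, which is 1.91-fold and 1.97-fold lower. Over the G2M quartiles they ran from -1.26 to -0.82 and from -1.08 to -0.86, and every interval lay below 0. The correlation of AHR and AHRR over the cells of a library lay between -0.01 and 0.02. AHRR was seen in only 21.1% of DMSO cells and 11.4% with both drugs. Counts this sparse cannot show whether the genes are tied per cell. The AHRR gene overlaps PDCD6, a calcium-binding protein gene on the same strand, so reads in the shared stretch may be assigned to either. PDCD6 was at 764 CPM in DMSO and 750 with neratinib, a ratio of -0.03 [-0.04, -0.01]. Over the cells of a library PDCD6 was also the gene most like AHRR among 7239, at a weak correlation of 0.12, 0.09, 0.09 and 0.06 in DMSO, fulvestrant, neratinib and both drugs.

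TIPARP, which encodes an ADP-ribosyltransferase that shuts the receptor down, was lower with fulvestrant. It stood at 12.2 CPM [11.6, 12.9] in DMSO and 11.8 [11.1, 12.6] with neratinib, against 10.4 [9.72, 11.1] with fulvestrant and 9.19 [8.58, 9.83] with both drugs. The 2 libraries with fulvestrant lie below the 2 without it, although the intervals of the single drugs meet at 11.1. Such an arrangement was not counted over all genes. The ratio was -0.23 [-0.36, -0.11] for fulvestrant against DMSO, short of the threshold, and -0.37 [-0.50, -0.23] for both drugs against neratinib, past it. Both drugs against DMSO gave -0.41 [-0.54, -0.29], which was -0.24 and not called when libraries were scaled by median-of-ratios size factors. In all 4 G2M quartiles the fulvestrant ratio was below 0 in both pairs, from -0.27 to -0.21 and from -0.48 to -0.23, although 4 of these 8 intervals reached 0.

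CYP1A1, the classical target and a monooxygenase of polycyclic hydrocarbons and estradiol, was higher with fulvestrant. Its level was 12.4 CPM [11.7, 13.1] in DMSO and 12.9 [12.2, 13.7] with neratinib, against 15.8 [15.0, 16.7] with fulvestrant and 14.9 [14.1, 15.7] with both drugs. The 2 libraries with fulvestrant lie above the 2 without it, and the counting intervals do not overlap, a separation not counted over all genes. These intervals treat UMIs as independent, whereas the variance of CYP1A1 over cells was 6.54, 6.37, 4.98 and 6.13 times its mean in DMSO, fulvestrant, neratinib and both drugs. They are therefore too narrow for this gene, whose call below rests on such an interval. Fulvestrant against DMSO gave 0.36 [0.25, 0.47], a 1.28-fold difference, and both drugs against neratinib gave 0.20 [0.09, 0.32], which was not called. With cells of at most 20% mitochondrial UMIs alone the latter was 0.38 and called. The ratio for neratinib against DMSO was 0.07 [-0.05, 0.19], or 0.25 under median-of-ratios scaling, and the pair of both drugs against fulvestrant gave -0.09 [-0.20, 0.02].

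The fulvestrant ratio of CYP1A1 was also read over the cell cycle. By G2M quartile, from the lowest to the highest share, the ratio for fulvestrant against DMSO was 0.30 [0.12, 0.48], 0.12 [-0.08, 0.32], 0.80 [0.53, 1.08] and 0.56 [0.19, 0.94]. In the disjoint pair, both drugs against neratinib, the same quartiles gave 0.28 [0.10, 0.47], -0.06 [-0.27, 0.14], 0.35 [0.08, 0.62] and 0.60 [0.20, 1.01]. The second quartile had the lowest ratio in both pairs. Whether the quartiles differ was not tested, and the intervals are too narrow here as well.

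CYP1B1, the second estrogen-oxidizing member of the family, was highest with fulvestrant alone. It stood at 23.4 CPM [22.3, 24.4] there, against 19.9 [19.0, 20.8] in DMSO, 18.6 [17.7, 19.6] with neratinib and 19.2 [18.4, 20.2] with both drugs. The counting interval of the fulvestrant library does not overlap any of the others, although it too is narrow for a gene with a variance over cells of 2.47 to 3.38 times its mean. How many of all genes stand apart in this way was not counted. Both drugs against fulvestrant gave -0.28 [-0.37, -0.19], but -0.07 [-0.19, 0.06] with at most 20% mitochondrial UMIs and -0.11 [-0.20, -0.02] under median-of-ratios scaling. The first of these settings kept 82.5% of fulvestrant cells but 37.7% with both drugs. Neratinib against DMSO went from -0.10 to 0.10 and 0.08 in the same settings. The ratio for fulvestrant was 0.23 [0.14, 0.32] against DMSO and 0.05 [-0.05, 0.15] where neratinib was present in both libraries. The difference between these values, the departure from additivity on the log2 scale, was -0.18 [-0.32, -0.05]; for CYP1A1 it was -0.15 [-0.31, 0.01].

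NQO1, a quinone reductase that answers to NRF2 as well as to AHR, was nearly level. Its CPM was 146 [143, 148] in DMSO and 146 [143, 149] with neratinib, 151 [149, 154] with fulvestrant and 144 [142, 146] with both drugs. The greatest of its 5 ratios in size was -0.07 [-0.11, -0.04], for both drugs against fulvestrant. With 12107 to 14948 UMIs per library it was counted far more precisely than the other 6 genes, so its intervals reach at most 0.04 to either side.

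**Figure D2:**
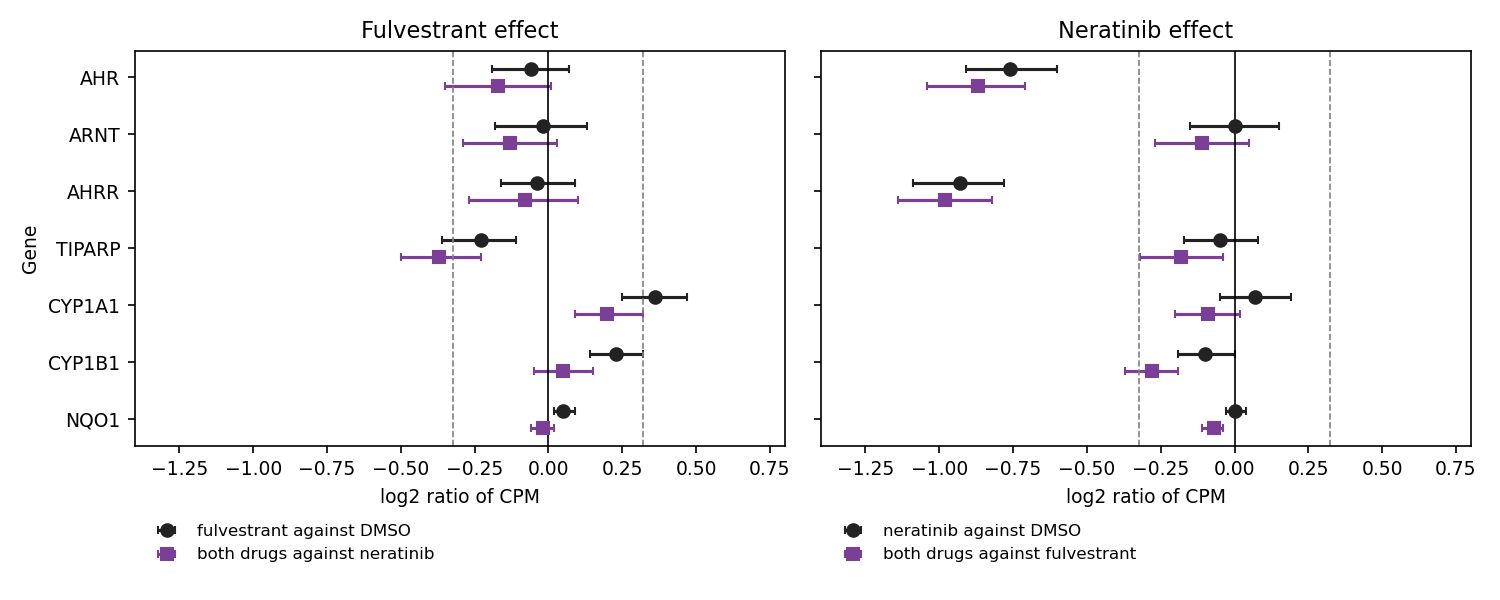
Log2 ratio of CPM for the 7 genes with 95% counting intervals, the 2 fulvestrant pairs on the left and the 2 neratinib pairs on the right; dashed lines mark 0.32 to either side of 0. AHR and AHRR lie far to the left in both neratinib pairs, and CYP1A1 and TIPARP lie on opposite sides of 0 in both fulvestrant pairs.

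CYP1A1 was spread over the cells in a way that set it apart from the other genes of the group except CYP1B1. A CYP1A1 UMI was seen in 10.00% of DMSO cells [9.12, 10.9], 12.4% with fulvestrant [11.3, 13.5], 11.7% under neratinib [10.7, 12.8] and 13.3% under both drugs [12.2, 14.4], by exact Clopper-Pearson intervals. Thinned to 5000 UMIs per cell the shares were 4.07%, 5.80%, 4.65% and 5.70%. The libraries with fulvestrant had the higher thinned shares, and the unthinned share put neratinib between DMSO and fulvestrant. Barcodes with 1 to 100 UMIs, which hold mostly free RNA, carried CYP1A1 at 12.1 to 15.3 CPM, close to its level in cells. In DMSO 874005 such barcodes held 75 CYP1A1 UMIs among 5107474 UMIs, a level of 14.7 CPM against 12.4 in cells. Of the 4301 cells, 216 had exactly 1 CYP1A1 UMI. How many of these came from free RNA was not tested. No cell type without the gene is at hand for comparison in a single line.

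Few cells nevertheless held much of the CYP1A1 transcript. The fewest cells that together held 50% of its UMIs were 68 of 4301 in DMSO, 73 of 3485 with fulvestrant, 74 of 3507 with neratinib and 80 of 3876 with both drugs, which is 1.58% to 2.11% of a library. For TIPARP, at a like total in DMSO, 384 cells were needed. The greatest number of CYP1A1 UMIs in a cell was 24, 24, 16 and 24 in the same order, while AHR, AHRR, ARNT and TIPARP never passed 7.

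The Fano factor, the variance over cells divided by the mean, is 1 for counts scattered at random. At 5000 UMIs per cell it was 2.25, 2.29, 2.05 and 2.42 for CYP1A1 in DMSO, fulvestrant, neratinib and both drugs. Among the genes of a like level in each library, 4218 to 4413 in number with a median of 1.01, CYP1A1 ranked 4, 3, 3 and 3 from the highest. CYP1B1, at 1.49, 1.59, 1.29 and 1.38, ranked 12, 10, 24 and 15. Values for AHR, AHRR, ARNT and TIPARP lay between 1.00 and 1.08, and those for NQO1 between 1.08 and 1.11.

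**Figure D3:**
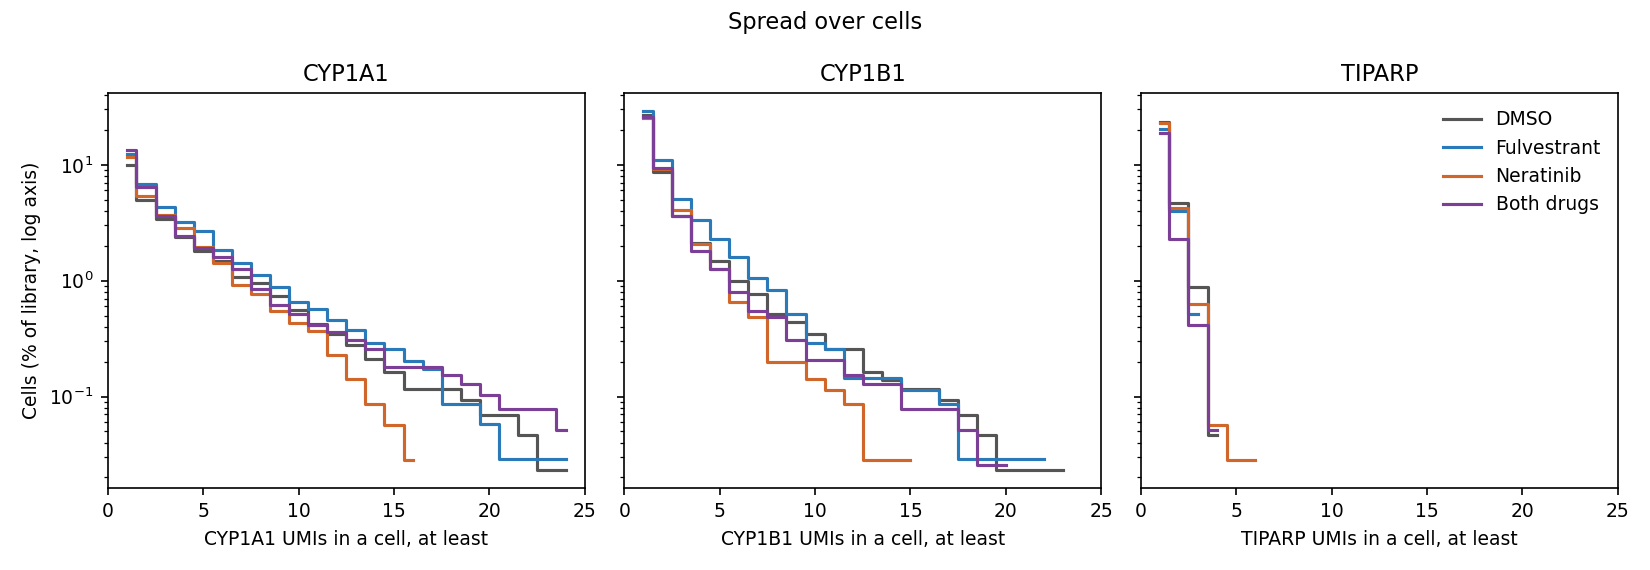
Share of cells (percent of a library, log axis) with at least the number of UMIs on the x axis, for CYP1A1, CYP1B1 and TIPARP in the 4 libraries. CYP1A1 and CYP1B1 have long tails reaching 24 and 23 UMIs in a cell, while TIPARP ends at 6.

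Cells were then grouped by CYP1A1 as 0, 1 to 4, or 5 or more UMIs, a range along a continuum and not a cell type. The top class held 77 cells in DMSO (1.79% [1.42, 2.23]) and 93 with fulvestrant (2.67% [2.16, 3.26]), then 68 with neratinib (1.94% [1.51, 2.45]) and 74 with both drugs (1.91% [1.50, 2.39]). These cells carried 53.9%, 57.7%, 48.0% and 48.3% of all CYP1A1 UMIs. Just inside the boundary, at 5 UMIs, were 13, 29, 18 and 12 cells, and just outside it, at 4 UMIs, were 26, 19, 32 and 20. Median depth was alike in the classes, 22565 UMIs in the top class of DMSO against 22617 in cells without CYP1A1, with median mitochondrial shares of 15.5% and 16.2%. Doublets were not called.

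CYP1B1 was far higher in the same cells. In DMSO its level was 14.3 CPM in cells without CYP1A1, 49.9 in cells with 1 to 4 UMIs and 163 in cells with 5 or more. The log2 ratio between the outer classes was 3.51 [3.32, 3.69] in DMSO and 2.95 [2.76, 3.14] with fulvestrant, then 2.74 [2.50, 2.98] with neratinib and 3.11 [2.90, 3.32] with both drugs. These and the other class intervals treat UMIs as independent, although the top class has only 68 to 93 cells per library. They may be too narrow for CYP1B1, whose variance over all cells was 2.47 to 3.38 times its mean. In the top class 81.8%, 77.4%, 79.4% and 73.0% of cells had a CYP1B1 UMI, against 22.3% to 24.6% of cells without CYP1A1. Over all cells of a library the correlation of the pair was 0.39, 0.41, 0.30 and 0.33, and it was the best match of each to the other among 7239 genes with a mean of at least 10 CPM. All cells of a library share its free RNA, which was not separated from these values. In the annotation used for neighbours, antisense transcripts overlap AHR, CYP1B1, TIPARP and NQO1, the coding gene RMDN2 overlaps CYP1B1 on the other strand, and AHR overlaps a further coding gene on its own strand; whether the counting used strand is not stated, so reads of overlapping genes cannot be told apart.

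The other members were less tied to CYP1A1. AHRR was higher in the top class in every library, at 1.11 [0.63, 1.56], 0.65 [0.13, 1.12], 0.99 [0.25, 1.66] and 1.38 [0.74, 1.97], from 19 to 42 UMIs. AHR itself was higher there in DMSO at 1.13 [0.65, 1.59] and with fulvestrant at 0.87 [0.38, 1.33], but with neratinib it was at -0.11 [-1.18, 0.78] and with both drugs at -0.25 [-1.39, 0.69], on 10 and 9 UMIs. TIPARP had intervals off 0 in DMSO, at 0.76 [0.26, 1.23], and with both drugs, at 1.22 [0.70, 1.70]. NQO1 ratios lay between 0.00 and 0.38, and those of ARNT, with 9 to 23 UMIs in the top class, all had intervals across 0.

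The adjoining family member CYP1A2, which lies next to CYP1A1 on the other strand, had only 13, 24, 29 and 28 UMIs in the 4 libraries. Of these, 2, 13, 6 and 6 fell in the top-class cells, against 6, 5, 6 and 14 in the far more numerous cells without CYP1A1. The ratio was 6.38 [4.80, 8.22] with fulvestrant and 4.04 [0.70, 6.52] in DMSO. The 13 UMIs with fulvestrant lay in only 6 cells, and with at most 20% mitochondrial UMIs 5 UMIs were left and the ratio was 5.05 [2.93, 7.17], 33.0-fold in place of 83.0-fold. EDC3, an mRNA decapping factor and the neighbour on the other side, on the same strand as CYP1A1, was higher in the top class by 1.64 in DMSO, 1.92 with neratinib and 1.74 with both drugs, and least so with fulvestrant, at 31.4 CPM against 13.2.

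Beside CYP1B1, the genes whose levels over cells were most like those of CYP1A1 were DDIT3, S100P, EDC3 and SLC3A2, with a lowest within-library correlation of 0.15 or 0.16. Values this weak in sparse counts are descriptions only, and these genes were picked for that likeness. S100P, a calcium-binding protein gene, was higher in the top class by 2.66, 2.00, 2.19 and 2.12 in DMSO, fulvestrant, neratinib and both drugs. SLC3A2, the heavy chain of amino acid transporters, gave 1.27, 1.08, 1.16 and 1.31.

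DDIT3, which encodes the stress factor CHOP, was also higher in these cells. It stood at 155, 133, 147 and 157 CPM in the top class against 42.2, 50.9, 23.5 and 27.7 in cells without CYP1A1, a ratio of 1.88, 1.38, 2.65 and 2.50. TRIB3, a target of the same stress pathway, followed at 0.98, 0.84, 1.73 and 1.91. Between libraries DDIT3 was lower with neratinib in cells without CYP1A1. In the whole top class its 4 levels lay within 133 to 157 CPM, but this narrow range did not hold in subsets of cells. With at most 20% mitochondrial UMIs the top class stood at 255 CPM under both drugs, and at 143 to 167 in the other libraries. Among cells up to the median G2M share of their library it stood at 206 under both drugs, and at 134 to 170 elsewhere. PPP1R15A was less different, at 0.58, 0.25, 0.61 and 0.81, and ATF3 gave 0.96, 1.53, 0.81 and 0.19. CHAC1 had only 1 to 10 UMIs in the top class.

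Among the drug readouts, PGR was lower in the cells with many CYP1A1 transcripts in all 4 libraries, and GREB1 in all but the library with both drugs. PGR, the progesterone receptor, stood at 51.3 CPM in the top class of DMSO against 149 in cells without CYP1A1, and at 57.8 against 181 with neratinib. The ratios were -1.53 [-1.84, -1.24] in DMSO and -1.65 [-1.95, -1.36] with neratinib, and -0.60 [-0.87, -0.35] with fulvestrant and -0.84 [-1.14, -0.56] with both drugs. GREB1, a receptor cofactor, gave -2.12 [-2.86, -1.48] and -1.98 [-2.64, -1.39] without fulvestrant, and -0.65 [-1.19, -0.17] and -0.39 [-0.86, 0.05] with it. In the top class PGR had nearly the same level in all 4 libraries, from 51.3 to 57.8 CPM on 96 to 128 UMIs. In cells without CYP1A1 it ran from 84.7 to 181. With at most 20% mitochondrial UMIs the top class stood at 40.7 CPM with both drugs, on 33 UMIs, and at 49.5 to 54.5 elsewhere. Among cells of lower G2M share it stood at 51.9 to 60.4. MYC and CCND1, the cyclin D1 gene, which fulvestrant also lowered, were not lower beyond counting error in the top class of DMSO or fulvestrant. The MYC ratio was -0.17 [-0.44, 0.08] in DMSO and 0.72 [0.31, 1.11] with fulvestrant, and that of CCND1 was 0.16 [0.04, 0.27] and 0.35 [0.24, 0.46]. With neratinib CCND1 was lower, at -0.46 [-0.86, -0.08], and MYC was at -0.26 [-0.58, 0.05]. Among cells of lower G2M share MYC was at -0.56 [-0.97, -0.17] with neratinib. With both drugs MYC was at -0.25 [-1.39, 0.69] and CCND1 at 0.23 [-0.14, 0.58].

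**Figure D4:**
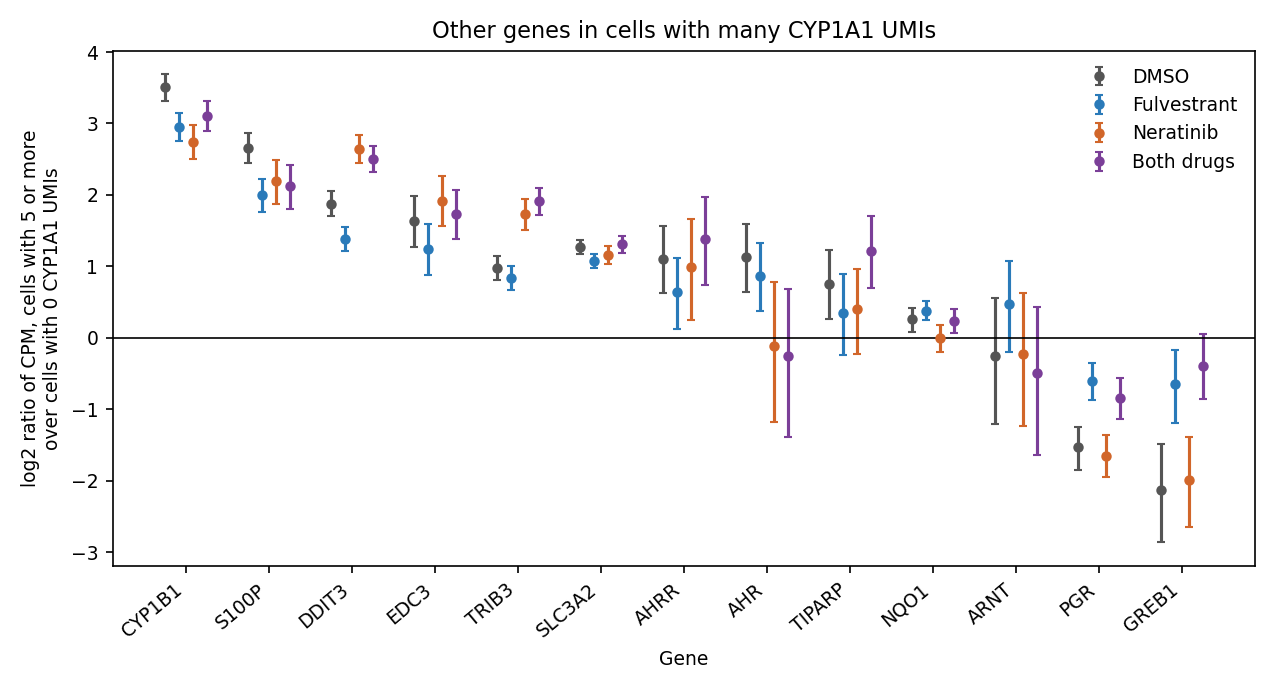
Log2 ratio of CPM in cells with 5 or more CYP1A1 UMIs over cells with 0, for 13 genes in the 4 libraries, with 95% counting intervals. CYP1B1, S100P and DDIT3 lie highest, and PGR and GREB1 lie below 0, further so in the 2 libraries without fulvestrant.

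The cells with CYP1A1 were poor in G2M transcripts. The summed G2M list stood at 848, 645, 1030 and 1420 CPM in the top class against 2200, 2070, 2620 and 2360 in cells without CYP1A1. By quartile of the G2M share, CYP1A1 was at 24.8 CPM in the lowest quartile of DMSO, 7.18 in the third and 3.39 in the highest. With fulvestrant it was at 30.6 in the lowest and 12.5 in the third; from the lowest to the highest it went from 24.4 to 3.08 with neratinib and from 29.8 to 4.66 with both drugs. CYP1B1 ran the other way, from 17.5 to 24.7 in DMSO and from 14.3 to 25.3 with neratinib, although it was higher in the cells with many CYP1A1 UMIs. Cells of the highest quartile also had more UMIs, a median of 31116 against 20122.5 in the lowest quartile of DMSO.

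**Figure D5:**
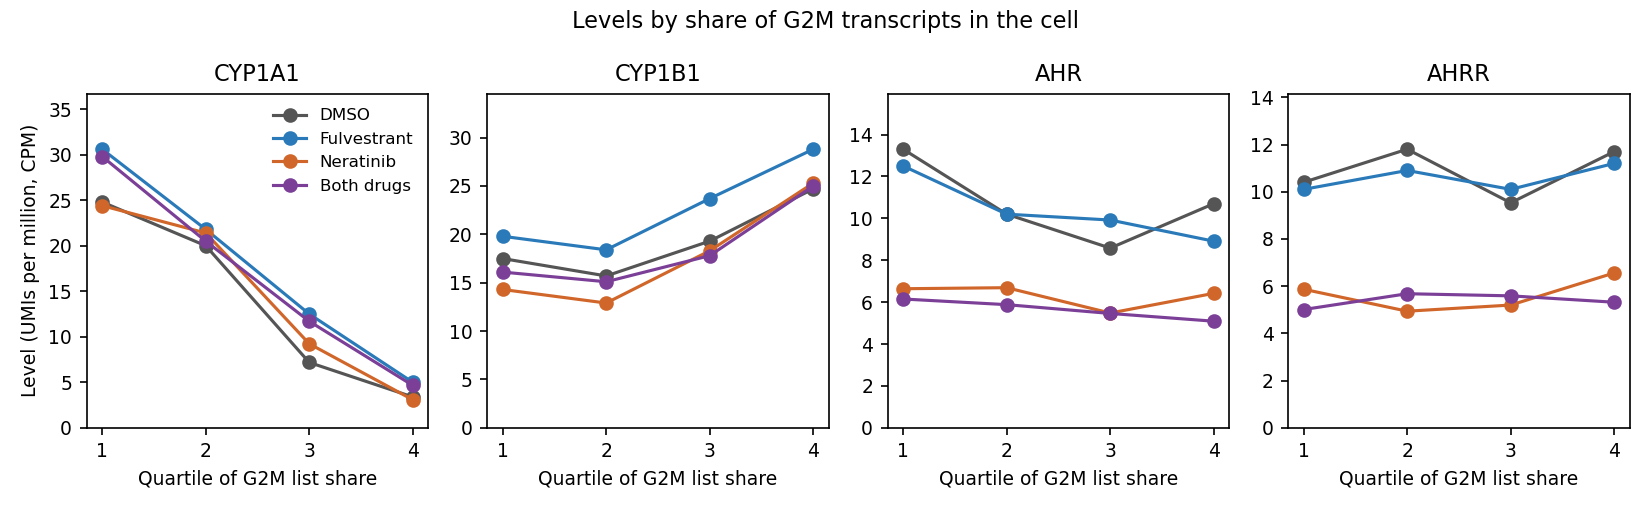
Level in CPM (linear axis from 0) of CYP1A1, CYP1B1, AHR and AHRR by quartile of the G2M list share of the cell, 1 for the lowest, 1 line per library. CYP1A1 falls from 24.8 to 3.39 CPM in DMSO, CYP1B1 is highest in the fourth quartile, and AHR and AHRR are lower with neratinib in every quartile.

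Within the cells of lower G2M share, those up to the median of each library, CYP1B1, AHRR and PGR kept the direction of their class differences. The G2M list itself then differed by only -0.20 to -0.09 between the outer classes. CYP1B1 gave 3.94, 3.53, 3.25 and 3.49 there, PGR -1.68, -0.43, -1.78 and -0.79, and AHRR 1.12, 0.55, 1.32 and 1.13, the 0.55 with fulvestrant having an interval across 0. Not every class difference held there: CCND1 in DMSO was at 0.02 [-0.12, 0.16], and PPP1R15A was at 0.36 [-0.05, 0.74] in DMSO and -0.02 [-0.43, 0.37] with fulvestrant.

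The other genes of the pathway were read from lists, whose counts of called genes are to be read against the shares of all genes. These were 13.6% higher and 33.3% lower for neratinib against DMSO, and 13.8% and 32.4% for both drugs against fulvestrant. In the fulvestrant pairs only 3.03% were called against DMSO and 3.58% with both drugs against neratinib, so a short list with none called says little. Of 15 listed parts of the receptor complex and partners, 14 had at least 1 CPM; none was called in either fulvestrant pair, while 3 were higher and 3 lower for neratinib against DMSO, with a median of -0.14 beside -0.16 for all genes. The coactivator NCOA1 went from 13.1 CPM in DMSO to 7.99 with neratinib, -0.71 [-0.85, -0.58], and its relatives NCOA2 and NCOA3 were higher, at 0.55 and 0.34. HIF1A, the hypoxia factor that also pairs with ARNT, was at -0.47 [-0.53, -0.40]. The third lower gene was the NF-kappa-B subunit RELB, named after its values were seen, at 1.57 CPM in DMSO and 0.651 with neratinib. It was below 1 CPM with neratinib, so its place among the measured genes rests on libraries where it was higher. Its call is therefore no support for a difference. KLF6, a zinc finger factor that can partner AHR, was at 0.36. HSP90AA1, which encodes the HSP90 chaperone of the complex, was at -0.16.

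Of 15 other receptor targets only 5 reached 1 CPM, and the dioxin-responsive genes ALDH3A1 and UGT1A6 had at most 2 UMIs per library. Among the 5, 1 was called lower for fulvestrant against DMSO and again for both drugs against neratinib, beside 1.80% and 2.00% of all genes. That gene was CYP2S1, a further dioxin-inducible P450, named after its values were seen. Its level was 2.95 CPM in DMSO and 2.07 with neratinib, and 1.36 and 0.823 where fulvestrant was added to each, a fulvestrant ratio of -1.11 [-1.44, -0.80] and -1.33 [-1.74, -0.93], opposite in sign to CYP1A1. SLC7A5 and SLC3A2, which together form an amino acid transporter, were at -0.42 and -0.44 for neratinib against DMSO, and NEDD9, a focal adhesion scaffold, was at 0.42. NFE2L2, the gene of NRF2, stayed within 0.06 of 0 in every pair.

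Among 22 listed NRF2 targets, the set NQO1 also belongs to, 17 were measured. For neratinib against DMSO 1 was higher and 2 were lower, beside 13.6% and 33.3% of all genes. ABCC3, a conjugate exporter, was at -0.91 [-0.97, -0.86], while GCLC, of glutathione synthesis, was at 0.34. For both drugs against fulvestrant 2 were higher and 3 lower, and ABCC3 was at -1.03. Fulvestrant against DMSO had 0 higher and 1 lower, with a median of 0.00. Like NQO1, the ferritin gene FTL and the malic enzyme gene ME1 were called in none of the 5 pairs.

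Enzymes that make or clear receptor ligands were also read. IDO1, which opens the route from tryptophan to kynurenine, had 0 UMIs in every library, and TDO2, which catalyses the same step, had at most 1. Of 6 measured genes of 11 in that list, 4 were lower for neratinib against DMSO and 0 higher, beside 33.3% and 13.6% of all genes. The tryptophanyl-tRNA synthetase WARS was among the lower, at -0.46. AFMID, the next enzyme of the route, was at 4.23 CPM with fulvestrant and 5.93 with both drugs, 0.49 [0.29, 0.68], and KYAT3 was called in no pair.

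Estrogen metabolism, where CYP1A1 and CYP1B1 act first, gave 10 measured genes of 14, none called in either fulvestrant pair. For neratinib against DMSO 1 was higher and 5 were lower, beside 13.6% and 33.3% of all genes. The median was -0.29 beside -0.16 for all genes. The sulfotransferases SULT2B1 and SULT1A1 were at -0.66 and -0.37. HSD17B12 was at -0.52 and HSD17B8 at -0.21, the latter not called. The gene called higher, HSD17B11, named after its values were seen, went from 0.332 CPM in DMSO to 2.16 with neratinib and 2.60 with both drugs, and stood at 0.418 with fulvestrant. It reached a mean of at least 1 CPM only through the libraries with neratinib. Its place among the measured genes thus rests on the difference itself, and its call is no support for one.

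Of 13 relatives listed beside TIPARP, 12 were measured, none called in a fulvestrant pair. For neratinib against DMSO 1 was higher, TNKS at 0.53, and 3 were lower, among them PARP9 at -0.68 and PARP2 at -0.36. Of all genes 13.6% were higher and 33.3% lower in that pair. TNKS2 was at 0.32 there and not called, and PARP14 was called in no pair. For both drugs against neratinib, where TIPARP was at -0.37, the 12 relatives had a median of 0.07.

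Stress genes, 10 measured of 11, had 5 lower and 1 higher for neratinib against DMSO, beside 33.3% and 13.6% of all genes. Their median was -0.31. TRIB3 went from 81.5 to 38.4 CPM, -1.09 [-1.15, -1.03], DDIT3 from 46.4 to 27.6, GADD45A from 26.8 to 16.2 and ATF3 from 6.83 to 4.45. The exception, DDIT4, an inhibitor of mTOR signalling, went from 20.8 to 30.3. For fulvestrant against DMSO none was called, with DDIT3 at 0.25 [0.19, 0.30] next to CYP1A1 at 0.36. All 14 G2M genes were measured, and none was called in a fulvestrant pair; for neratinib against DMSO CCNB2 and HMGB2 were higher, at 0.34 and 0.82, and CDC20 lower, at -0.60, while TOP2A and PLK1 were at 0.29 and -0.12.

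For NQO1 the most alike genes over cells were the proteasome subunit PSMB3, the peroxiredoxins PRDX2 and PRDX1, the chaperone HSP90AA1 and the ubiquitin gene UBB, with a lowest within-library correlation of 0.28 to 0.35. Those of CYP1B1 beyond CYP1A1 were TPX2, HMGB2, SLC7A5 and H1FX, at 0.10 or 0.11, and those of TIPARP were GOLGB1, CREB5, PRRC2C, MALAT1 and TXNIP, at 0.04 to 0.07. Depth and cell cycle differ between the cells of a library, and their part in these values was not tested.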

How the data were processed

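Single-cell RNA libraries of BT474 cells were made with a droplet 3' kit, 1 per group. The authors deposited whole-number UMI counts of 33538 genes for 6794880 unfiltered barcodes per library, made with Cell Ranger 3.1.0 and build hg19 per the submitters' processing notes; 33456 gene identifiers are in GENCODE release 29, 33071 with the same symbol, so no gene coordinates are printed. The number that ends a barcode was matched to the number that opens a sample title, a mapping no other label states. Per the labels the libraries were pooled for sequencing. Whether replicate cultures existed is not stated by the labels.

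Cells had at least 5000 UMIs and 500 genes, with no mitochondrial ceiling and no doublet calls. Counts were summed per library and scaled to CPM, with 4 libraries in 5 pairs. Intervals for ratios are exact conditional binomial ones of 2 Poisson counts, and those of shares are exact Clopper-Pearson; PCR and culture variation are not in them. The departure from additivity sums all 4 log2 levels. Likeness is the Pearson correlation of log counts per 10000 UMIs, ranked by the lowest of the 4 libraries. The scripts (Python 3.11.15, numpy 2.4.6, scipy 1.17.1, pandas 2.3.3, matplotlib 3.10.9) were tested on simulated data. The members and the gene lists were chosen with earlier results of these data known.

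Named were the 7 members, up to 5 genes per list with a mean of at least 5 CPM and the greatest absolute ratio, the 5 most alike genes for CYP1A1, CYP1B1, TIPARP and NQO1, 4 stress genes beside CYP1A1, and MYC, GREB1, PGR, DUSP6 and CCND1 as drug readouts; exceptions are marked in the text, and values of some listed genes are not reported here. Alternatives were a ceiling of 20% mitochondrial UMIs, at least 10000 UMIs per cell, median-of-ratios scaling over genes with at least 20 CPM, CPM without mitochondrial genes, equal weight per cell and no CPM filter. The comparisons between CYP1A1 classes with fewer cells were added after seeing the data.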

Additional observations from a re-analysis of the deposited data

Results flagged for a closer look

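HMGB2, a chromatin protein gene of the G2M list, differed in direction between the 2 fulvestrant pairs: it was at 0.03 for fulvestrant against DMSO and at -0.13 for both drugs against neratinib. That difference was not tested, since each group is 1 library, and neither value reaches 0.32.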

How the results depend on the processing

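No paired analysis was possible because each group was 1 library. With at most 20% mitochondrial UMIs, the CYP1A1 ratio was 0.44 for both drugs against DMSO, 0.38 for both against neratinib and 0.04 for both against fulvestrant (0.27, 0.20 and -0.09 in all cells), members called for both against neratinib were 2 in place of 1, and PLK1 for both against DMSO was at 0.11 in place of -0.37. That ceiling kept 85.4% of DMSO and 82.5% of fulvestrant cells, but 37.6% with neratinib and 37.7% with both drugs. In cells without CYP1A1 the G2M list was then at 3660 CPM in place of 2620 with neratinib, and 2320 in place of 2200 in DMSO. These values thus do not compare like parts of the libraries. Under median-of-ratios scaling CYP1A1 was at 0.25 for neratinib against DMSO, 0.45 for both against DMSO and 0.08 for both against fulvestrant. CYP1A1 for fulvestrant against DMSO stayed called under all 5 alternatives run. Without the CPM filter 694 genes in place of 368 were past the threshold for fulvestrant against DMSO and 846 in place of 434 for both against neratinib. Unthinned shares of cells with CYP1A1 were 10.00%, 12.4%, 11.7% and 13.3%. The causes of these shifts were not tested, other than more genes or UMIs counted in the last 2 settings. Of the 8 calls of the other members, 1 was lost under median-of-ratios scaling (TIPARP, both against DMSO), and 1 was gained with equal weight per cell (CYP1B1, both against fulvestrant, -0.33). Depth limits the members other than NQO1 to 475 to 2040 UMIs per library.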

Other observations

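The luminal receptor and kinase output genes were read in the same cells. CCND1, the cyclin D1 gene, stood at 314 CPM in DMSO and 245 with fulvestrant, a ratio of -0.36, and was at -2.80 for neratinib against DMSO. In cells with 5 or more CYP1A1 UMIs it was higher than in cells without CYP1A1 by 0.16 [0.04, 0.27] in DMSO and 0.35 [0.24, 0.46] with fulvestrant, and lower by -0.46 [-0.86, -0.08] with neratinib. Among cells of lower G2M share the same ratios were 0.02 [-0.12, 0.16], 0.28 [0.14, 0.40] and -0.45 [-0.92, -0.01], so the one in DMSO did not hold. HSPA5, an endoplasmic reticulum chaperone, was at 0.55, 0.36, 0.01 and 0.88 between the same classes in DMSO, fulvestrant, neratinib and both drugs, with an interval of [-0.15, 0.17] for neratinib alone. Among cells of lower G2M share HSPA5 was at -0.07 [-0.23, 0.09], -0.23 [-0.37, -0.09], -0.38 [-0.58, -0.18] and 1.02 [0.90, 1.14], so only the positive ratio with both drugs held there.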
